A study of Mus musculus with 20 samples.

Results

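The Igf2r-Airn domain on mouse chromosome 17 was described by the methylation level of its promoter windows in single blastocysts. The members were all promoter windows of the deposited table that start between 12600000 and 13050000 on chromosome 17 (build GRCm39). There were 11 such windows among 54034 in all, of which 10 are described, and each is 3500 bp long, with 3000 bases before a transcription start and 500 from it onward. DNA of each of 20 single mouse blastocysts had been bisulfite sequenced, a method that reads unmethylated cytosines as thymines and leaves methylated ones as cytosines. The 10 control embryos (replicates 1 to 10) carried the label Control, and the 10 mutant embryos (replicates 11 to 20) the label Padi6-mutant. The design text gives the latter as embryos from oocytes with the Padi6 P620A allele; the fathers, strain, sex, age and litters of the embryos are unknown from the labels. PADI6 is made in the oocyte, where it belongs to the subcortical maternal complex, and is handed on to the embryo, and the comparison asks whether methylation of this domain differs when the egg carried the mutation.

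Igf2r codes for the receptor that takes up insulin-like growth factor 2 and sends it to the lysosome for breakdown, and in the mouse it is expressed mainly from the maternal chromosome after implantation. Airn is a long noncoding RNA that starts inside Igf2r, runs antisense across the Igf2r promoter and is expressed from the paternal chromosome. Its promoter lies at the imprint control element of the domain, which receives methylation in the egg, so that the maternal copy is methylated and the paternal copy is not. Airn silences Igf2r on the paternal chromosome, and in the placenta also Slc22a2 and Slc22a3, which code for organic cation transporters.

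Windows are named by position alone, so genes were assigned by spacing. In the RefSeq gene table, which is on another build (GRCm38.p6), the distance of each gene start from the Airn start was compared with the distance of the gene-proximal base of each window from that of the Airn window. Besides the Airn window, 6 of those described met a gene start within 100 bp, and 2 of them, Slc22a3 and Gm7162, met it exactly. The Igf2r window (chr17:12988052-12991551) was off by 42 bp and the Slc22a2 window (chr17:12800019-12803518) by 57 bp. The Slc22a3 window was chr17:12726092-12729591 and the Airn window chr17:12957198-12960697. The remaining named windows were C030013G03Rik, a long noncoding RNA that starts within Slc22a3 (chr17:12682697-12686196), and the pseudogenes Gm16574 (chr17:13034680-13038179) and Gm7162 (chr17:13039230-13042729). The other 3 windows met no gene start and are called here by the distance of their centre from the Airn start: 28.1 kb (chr17:12986518-12990017), 51.6 kb (chr17:13010048-13013547) and 60.7 kb (chr17:13019183-13022682). The window at 28.1 kb overlaps the Igf2r window by 1966 bp. In all, 6 windows, among them those of Igf2r and of both pseudogenes, lie within the 118574 bp that the table gives as the length of Airn.

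The promoters of Igf2r and Airn differ in the number of CpG dinucleotides, the sites at which methylation is measured. Their 300 bases from RefSeq (GRCm38.p6; 250 bases before the start and 50 from it onward, 5′ to 3′ along the gene) are printed to show this, with each CpG in capitals. The Airn stretch is chr17:12741061-12741360 on the plus strand and the Igf2r stretch chr17:12769657-12769956 on the minus strand, both on GRCm38.p6 and thus not comparable with the window positions.
Airn: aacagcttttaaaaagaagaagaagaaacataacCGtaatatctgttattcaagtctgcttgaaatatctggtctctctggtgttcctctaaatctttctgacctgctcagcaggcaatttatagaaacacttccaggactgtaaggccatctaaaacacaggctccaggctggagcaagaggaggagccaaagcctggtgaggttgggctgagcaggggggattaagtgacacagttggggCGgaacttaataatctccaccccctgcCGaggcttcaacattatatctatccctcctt
Igf2r: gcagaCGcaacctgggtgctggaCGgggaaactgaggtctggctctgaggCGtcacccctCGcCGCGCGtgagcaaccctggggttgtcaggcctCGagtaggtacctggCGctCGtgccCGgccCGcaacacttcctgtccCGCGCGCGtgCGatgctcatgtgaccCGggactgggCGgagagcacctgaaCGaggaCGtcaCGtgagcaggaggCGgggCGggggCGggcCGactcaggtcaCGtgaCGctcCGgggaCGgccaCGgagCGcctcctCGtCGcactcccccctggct
The Airn stretch held 3 CpGs, and 31.4% of the 32851 RefSeq promoters held 3 or fewer. The Igf2r stretch held 34, and 7.73% of promoters held 34 or more. The Slc22a2 stretch held 8, that of Slc22a3 held 5 and that of C030013G03Rik held 2, against a median of 7 over all promoters. The hexamer TGCCGC, the recognition sequence of ZFP57, a protein that guards methylated imprint control elements, was searched on both strands and occurred once in the Slc22a2 stretch and in none of the other 4. It occurred in 11.6% of all promoters. A match is a description of these letters and not a binding site. The deposited level covers the whole 3500 bp window, of which 300 bases are shown, and how much of the CpG island of the imprint control element falls in the Airn window was not analysed here.

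**Figure D1:**
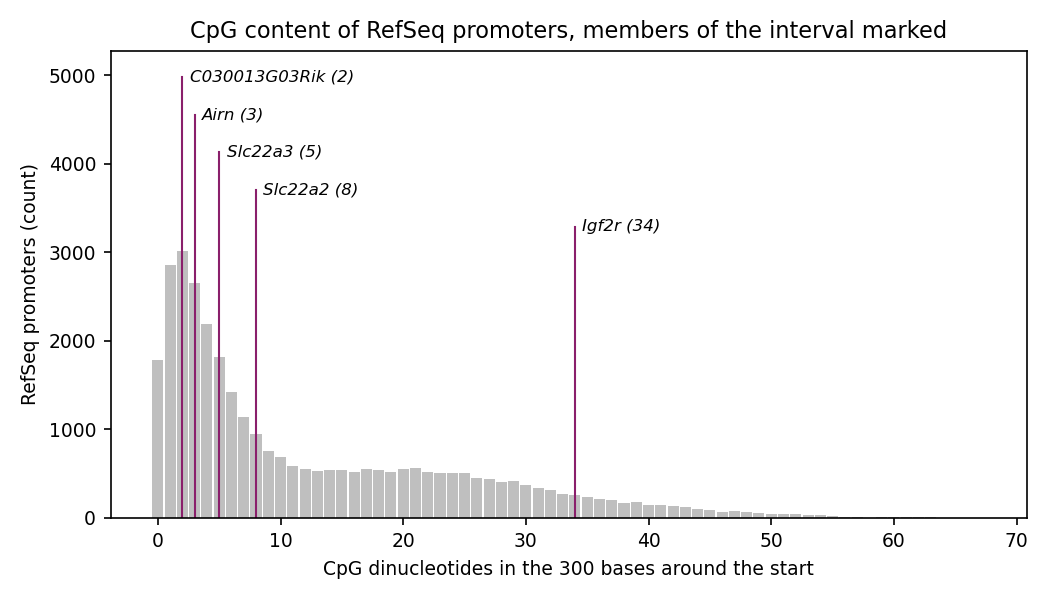
Number of CpG dinucleotides (x axis) in the 300 bases around the start of all 32851 RefSeq promoters (grey bars, y axis: count of promoters), with lines at the 5 members that have a sequence. Airn with 3 and Slc22a3 with 5 lie below the median of 7, Slc22a2 with 8 lies just above it, and Igf2r with 34 lies far to the right.

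Coverage differed between embryos and sets what can be compared. Read depth is unknown, because the table holds levels without counts. The number of windows with a value ran from 2875 to 46950 per embryo. Embryos with a value in more than 50% of all windows are called densely covered: 6 control embryos (replicates 1 to 5 and 10) and 3 mutant embryos (replicates 11, 12 and 14). The sparsely covered ones were 4 control and 7 mutant embryos. Of the 200 possible values of the 10 windows described, 115 were present, 73 in control and 42 in mutant embryos. A densely covered embryo had a value in 8 to 10 of these windows and a sparsely covered one in 1 to 7. Values of exactly 0% or 100% made up 87.5% of the 32 such values of sparsely covered embryos and 37.3% of the 83 of densely covered ones.

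**Figure D2:**
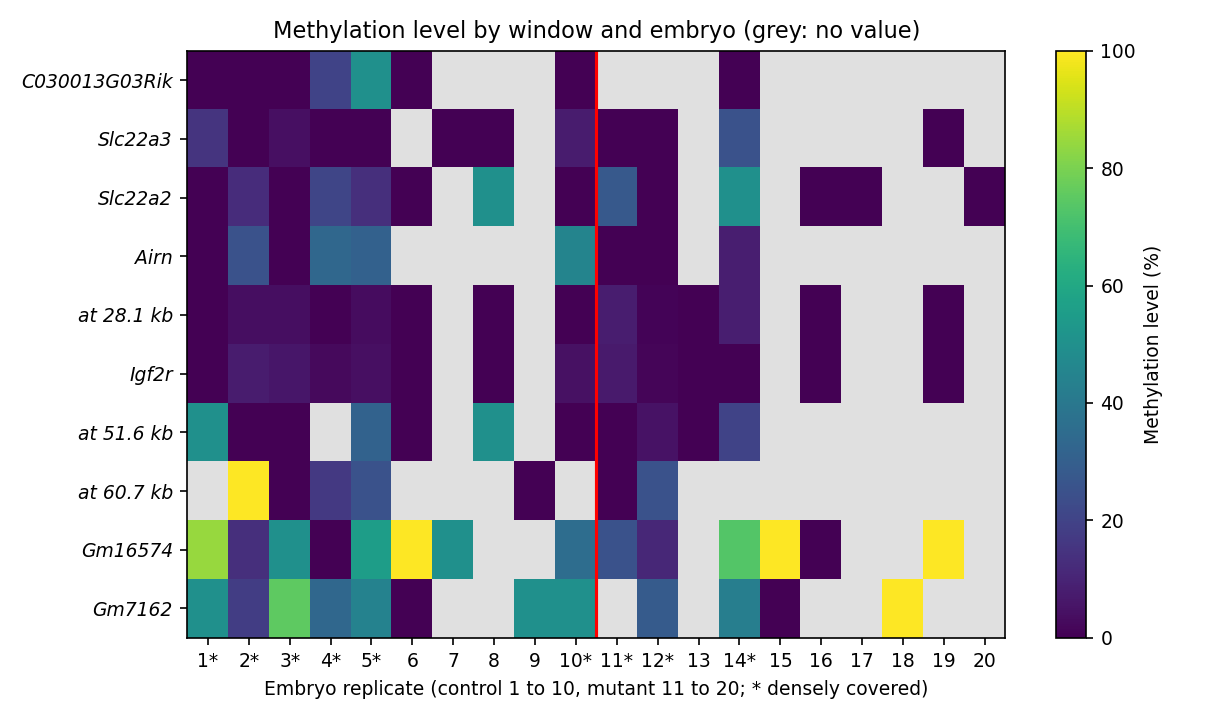
Methylation level (colour, 0% to 100%) of the 10 windows described (rows, in order along chromosome 17) in the 20 embryos (columns, the red line divides control from mutant; an asterisk marks densely covered embryos). Grey cells have no value. The Airn row is filled in 9 densely covered embryos, and the Igf2r row is dark in all 14 embryos with a value.

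The Airn window was partly methylated in most control embryos and at or near 0% in the mutant embryos with a value, but the difference did not pass the test. In control embryos its level was 0% in replicate 1, 25% in replicate 2, 0% in replicate 3, 33.3% in replicate 4, 31.0% in replicate 5 and 45% in replicate 10. In mutant embryos it was 0% in replicates 11 and 12 and 8.33% in replicate 14. The 4 control embryos above 0% all lay above every mutant embryo, while the other 2 control embryos, at 0%, lay within the mutant range, so the groups overlapped. All 9 embryos were densely covered, and the other 11 embryos had no value here. The mean was 22.4% ± 18.5 (SD, n = 6) in the control group against 2.78% ± 4.81 (SD, n = 3) in the mutant group. The difference was -19.6 percentage points (SE 10.5, 95% interval -43.8 to 4.55), with 3 of 3 mutant embryos below the control mean. In limma, fitted over the 37645 windows that had values from 3 or more embryos per group, the unadjusted p was 0.0986 and the Benjamini-Hochberg adjusted p 0.834. The two-sided exact permutation test of the same difference gave p = 0.238, where 6 against 3 embryos can reach 0.0238 at the lowest.

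Among all tested windows, 10.2% had a difference at least as far below 0 as that of Airn. Of the 2485 windows with a control mean from 20% to 25%, 72.4% were lower in mutant embryos, with a median difference of -8.72 points. Over all tested windows 55.9% were lower, with a median of -1.07 points. Among the 2485, 13% had a difference at least as far below 0 as that of Airn. They were placed by the control level alone, which is itself a term of the difference. Choosing a control level above the median of 9.66% tilts the differences downward, so these shares are a description only.

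The level of Airn was also set against that of the whole embryo. The embryo mean over all tested windows outside the interval was taken as deviations from each window's mean, set back on the mean of those window means. It was 13.9% ± 1.28 (SD, n = 6) in the control embryos with an Airn value and 11.5% ± 4.78 (SD, n = 3) in the mutant ones. Relative to this mean the Airn window stood 8.52 points higher (SD 19.3, n = 6) in control embryos. In mutant embryos it stood lower in 3 of 3, with a mean of -8.76 points (SD 1.92, n = 3). Control replicates 1 and 3, at -15.0 and -14.1 points, stood lower than every mutant embryo. In an embryo with an Airn level of 0%, this value is only the embryo mean with its sign turned. The groups differed by -17.3 points (SE 7.96), which did not pass the two-sided exact permutation test (p = 0.238).

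The Igf2r promoter was almost unmethylated in every embryo with a value. In densely covered control embryos its level was 0% in replicate 1, 7.55% in replicate 2, 6.10% in replicate 3, 2.44% in replicate 4, 4.11% in replicate 5 and 4.35% in replicate 10. Control replicates 6 and 8, which are sparsely covered, stood at 0%. In densely covered mutant embryos it was 7.14% in replicate 11, 1.18% in replicate 12 and 0% in replicate 14. Mutant replicates 13, 16 and 19, which are sparsely covered, stood at 0%. No embryo exceeded 7.55%, and the groups overlapped over nearly their whole range. The mean was 3.07% ± 2.94 (SD, n = 8) in the control group against 1.39% ± 2.86 (SD, n = 6) in the mutant group, a difference of -1.68 points (SE 2.04, 95% interval -6.07 to 2.71, limma adjusted p = 0.848). The two-sided exact permutation p was 0.312. Among the named promoters of the interval this was the narrowest 95% interval. In densely covered embryos alone the Igf2r difference was -1.32 points and was not called either (limma adjusted p = 0.912). The overlapping window at 28.1 kb gave a like picture, from 0% to 3.90% in 8 control and from 0% to 8.45% in 6 mutant embryos, with a difference of 1.57 points (95% interval -2.90 to 6.04, limma adjusted p = 0.855). This difference was 0.46 points without mutant replicate 14, 0.57 points without mutant replicate 11 and 4.03 points in densely covered embryos, and it was not called in any of these fits.

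The levels of Airn and Igf2r were also compared within embryos, and the groups did not differ past the test. Airn was above Igf2r in 4 of 6 control embryos, equal in 1 and below in 1. It was above in 1 of 3 mutant embryos and below in 2. Airn minus Igf2r was 18.3 points (SD 18.2, n = 6) in control and 0.005 points (SD 7.81, n = 3) in mutant embryos. The two-sided exact permutation test of this difference of -18.3 points (SE 8.70) gave p = 0.143, with 3 of 3 mutant embryos below the control mean. Control replicates 1, 2 and 3 also lay below it, and replicates 1 and 3 lay within the mutant range of -7.14 to 8.33 points. Since no Igf2r level exceeded 7.55%, this comparison largely repeats the Airn levels of the same embryos and is not separate support.

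**Figure D3:**
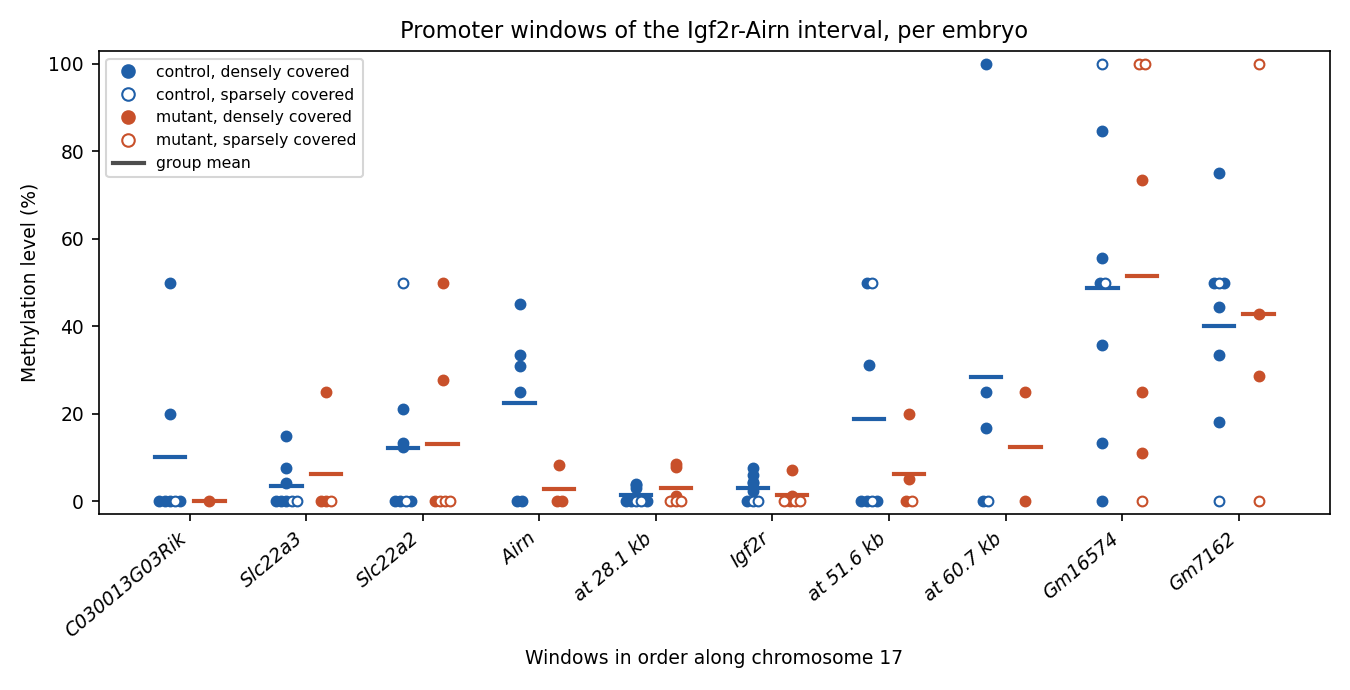
Methylation level in percent (y axis) of each window described (x axis, in order along chromosome 17), with 1 point per embryo and a bar at the group mean. Blue is control and orange mutant; filled points are densely and open points sparsely covered embryos. At Airn 4 control points lie between 25% and 45%, above the 3 mutant points, and at Igf2r all 14 points lie at or below 7.55%.

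Of the placentally imprinted transporter genes, Slc22a3 showed mostly low levels, whereas Slc22a2 ran from 0% to 50.0% in both groups. A single embryo stood far above the rest of its group in mutant embryos at Slc22a3 and in control embryos at Slc22a2. At Slc22a3, the level in control embryos was 15.0% in replicate 1, 4.17% in replicate 3, 7.69% in replicate 10 and 0% in replicates 2, 4, 5, 7 and 8. In mutant embryos it was 25% in replicate 14 and 0% in replicates 11, 12 and 19. The mean was 3.36% ± 5.49 (SD, n = 8) in the control group against 6.25% ± 12.5 (SD, n = 4) in the mutant group (2.89 points, SE 5.05, 95% interval -8.17 to 14, limma adjusted p = 0.884). The mutant mean rests on replicate 14 alone, and without it the difference was -3.36 points.

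At Slc22a2, control embryos stood at 12.5% in replicate 2, 21.1% in replicate 4, 13.3% in replicate 5, 50.0% in replicate 8 and 0% in replicates 1, 3, 6 and 10. Mutant embryos stood at 27.8% in replicate 11, 50.0% in replicate 14 and 0% in replicates 12, 16, 17 and 20. The groups shared the same range, from 0% to 50.0%. The mean was 12.1% ± 17.3 (SD, n = 8) in the control group against 13% ± 21.3 (SD, n = 6) in the mutant group, a difference of 0.85 points (SE 9.88, 95% interval -20.4 to 22.1, limma adjusted p = 0.987). Its sign turned when any of 6 embryos was left out (control replicate 1, 3, 6 or 10, or mutant replicate 11 or 14), with values down to -6.56 points. In densely covered embryos alone, 6 control and 3 mutant, the difference was 18.1 points and was not called either (limma adjusted p = 0.859).

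C030013G03Rik, the noncoding RNA that starts within Slc22a3, stood at 0% in 5 of 7 control embryos, at 20.0% in replicate 4 and at 50.0% in replicate 5, and in the mutant group a single embryo, replicate 14, had a value, 0%. With 1 mutant value it was not tested.

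The highest levels of the interval lay downstream, inside the stretch that Airn transcribes. Gm16574 stood at 0% to 100% (median 50.0%) in 8 control and at 0% to 100% (median 49.2%) in 6 mutant embryos. In the densely covered embryos alone it ran from 0% to 84.6% in 6 control and from 11.1% to 73.3% in 3 mutant embryos. The means were 48.7% ± 33.3 (SD, n = 8) and 51.6% ± 45.1 (SD, n = 6), a difference of 2.92 points (95% interval -39.9 to 45.7, limma adjusted p = 0.975). Both groups thus covered nearly the whole scale, and the 95% interval spans large changes in either direction; the sign turned when control replicate 2 or 4 or mutant replicate 14, 15 or 19 was left out.

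Gm7162, the nearby pseudogene, stood at 0% to 75.0% (median 47.2%) in 8 control and at 0% to 100% (median 35.7%) in 4 mutant embryos, with a difference of 2.74 points (95% interval -35.3 to 40.8, limma adjusted p = 0.973). Without mutant replicate 18, at 100%, the difference was -16.3 points, and it also turned to -0.40 points without control replicate 2 and to -2.99 points without control replicate 6. In the 3 mutant embryos with both values, Gm16574 was above Airn in 3 of 3, and in control embryos it was above in 3 of 6. Gm7162 was above Airn in 2 of 2 mutant embryos with both values. In control embryos Gm7162 was above in 4 of 6, equal in 1 and below in 1.

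The window at 51.6 kb ran from 0% to 50.0% in 7 control and from 0% to 20.0% in 4 mutant embryos. Its difference of -12.5 points was not called (95% interval -39.5 to 14.5, limma adjusted p = 0.834). It was -7.29 points without control replicate 1 or 8, -17.1 points without mutant replicate 14 and -7.92 points in densely covered embryos, again not called. The window at 60.7 kb had values from 0% to 100% in 5 control embryos and of 0% and 25% in 2 mutant embryos, too few to be tested.

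Over the interval, 8 of the 10 windows described were tested and 0 passed the limma threshold of an adjusted p of 0.05. Of all 37645 tested windows, 14 passed (0.0372%), so a count of 0 among 8 does not set the interval apart. At an unadjusted p under 0.05 there were also 0 of 8, against 5.75% of all tested windows, and the exact permutation test gave 0 of 8 as well. The mutant mean was lower in 3 of the 8 windows and higher in 5, with a median difference of 1.21 points, against 55.9% of windows lower and a median of -1.07 points over all tested windows. In the flanks of 450000 bp on either side, 15 of 24 tested windows were lower, the median difference was -1.84 points and 0 passed the threshold, with 2 at an unadjusted p under 0.05.

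**Figure D4:**
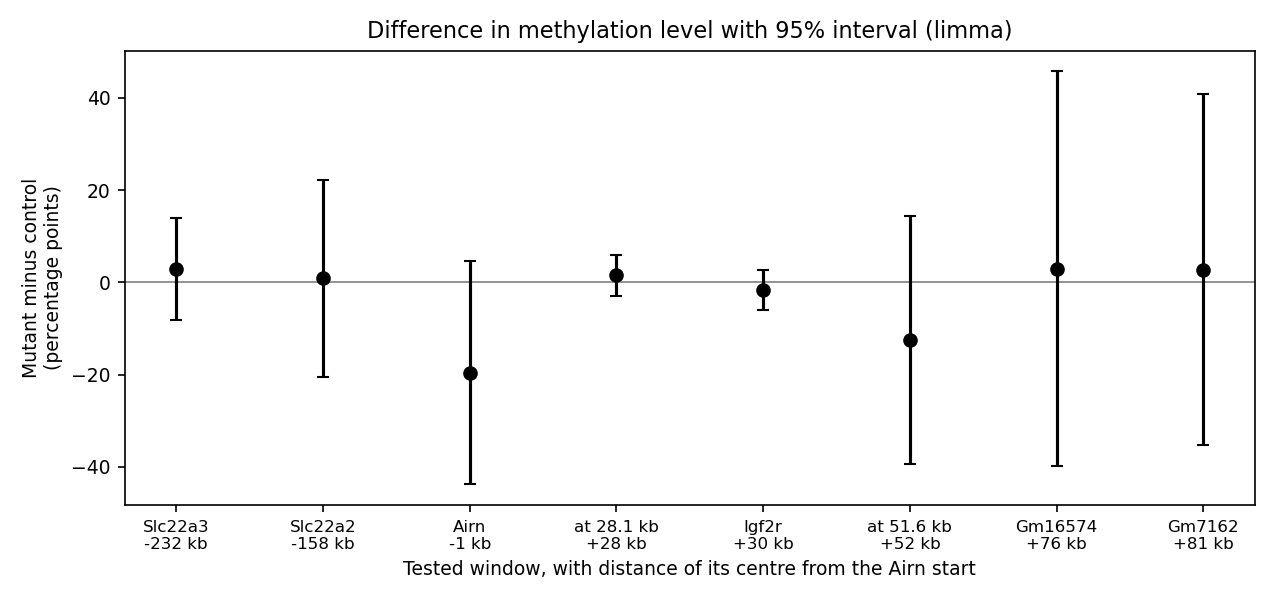
Mutant minus control difference in methylation level in percentage points (y axis) at the 8 tested windows (x axis, with the distance of the window's centre from the Airn start), from limma; bars are 95% intervals. All 8 intervals contain 0; that of Airn runs from -43.8 to 4.55 and that of Igf2r from -6.07 to 2.71.

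In control embryos the mean levels ordered the windows from Gm16574 and Gm7162 (40.1% ± 22.9, SD, n = 8) through the window at 60.7 kb (28.3% ± 41.5, SD, n = 5), Airn, the window at 51.6 kb (18.8% ± 24.2, SD, n = 7), Slc22a2, C030013G03Rik (10.0% ± 19.1, SD, n = 7) and Slc22a3 down to Igf2r and the window at 28.1 kb (1.35% ± 1.88, SD, n = 8). No 2 neighbours in this order differed by more than the larger SD of the pair. Within embryos, Gm16574, the highest in this order, was above Igf2r, the next to lowest, in 6 of 7 control and 4 of 5 mutant embryos. It was equal to Igf2r in the remaining mutant embryo. The order came from the same control embryos, so the control count is a description and not separate support for it.

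The mutant embryos varied among themselves at these windows. At the 7 windows with a value in all 3 densely covered mutant embryos, replicate 14 was the highest in 6, with a mean level of 26.4%, against 9.69% in replicate 11 and 2.63% in replicate 12. The embryo mean outside the interval, taken as above, was also highest of the 3 in replicate 14, at 16.6% against 10.9% and 7.13%. Among the 6 densely covered control embryos, no embryo was highest at more than 2 of the 8 windows with a value in all of them. Their mean levels there ran from 10.0% to 25.2%. These counts and means are not comparable between the groups, because the numbers of embryos differ and the windows are not the same. The control windows include C030013G03Rik and Gm7162, and the mutant ones include the window at 51.6 kb instead. Averaged over the 8 tested windows as deviations from each window's mean, the interval stood at 17.6% ± 5.76 (SD, n = 6) in densely covered control and 15.8% ± 11.6 (SD, n = 3) in densely covered mutant embryos, values given as a description without a test. Over all 20 embryos the means were 19.3% ± 6.74 (SD, n = 10) and 19.8% ± 22.3 (SD, n = 10), where the 76.7% of mutant replicate 18 rests on a single window. The 5.29% of mutant replicates 17 and 20 and the 26.7% of control replicate 9 also rest on a single tested window each. The difference of 0.51 points became -6.40 points without mutant replicate 18.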

How the data were processed

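DNA methylation of single mouse blastocysts was measured by bisulfite sequencing after the polyadenylated RNA of the embryo had been captured on beads, per the labels' protocols. The submitters' processing notes name Trim Galore 0.4.4, Bismark 0.18.2 and build GRCm39. A single table was deposited by the authors, with a score per window and embryo, a methylation level in percent, without read counts. The way calls were combined within a window and any coverage minimum are not stated there, so depth is unknown and a level from few reads falls on coarse steps.

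Of 54080 rows, 46 repeats were dropped. Of 491705 values, 1594 (0.324%) were whole numbers above 100 and were read as percents without their decimal point and divided by 1000; in the interval this touched 1 value, at 28.1 kb. Groups came from the sample titles. Each embryo counted as a replicate, and since mothers and litters are not given, the p-values reflect only the spread from embryo to embryo, and some embryos may share a mother.

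The test was limma 3.58.1 in R 4.3.3 on untransformed percent, over windows that had values from 3 or more embryos per group, with Benjamini-Hochberg adjustment over all of them. Tested on simulated data, with values shuffled over embryos, it made some false calls, so the counts of calls are approximate. The changes added to such data were rises at windows with low levels. How often a loss such as that at Airn would be called was not tested. Exact permutation tests used scipy 1.17.1 in Python 3.11.15. The members, lists and tests were chosen with earlier results of these data known. A list of other imprinted promoters was not analysed here, since their windows could not be tied to genes on the same build. Windows most like Airn across embryos were to be named where at least 10 embryos were shared; the Airn window had 9, so none is named. Of the 11 windows, 1 is not reported here. The others are all described, and embryos are named where a value rests on them.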

Additional observations from a re-analysis of the deposited data

Results flagged for a closer look

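Each of the following single embryos lay far from the rest of its group, with a gap to the next embryo that exceeded the 95% limit for a group of that size. Of 20 groups of values checked, 6 held such an embryo, whereas chance gives about 1 in 20, and a group with most values at 0% easily meets the limit. At C030013G03Rik, control replicate 5 stood at 50.0%, with the next of 7 at 20.0%. At Slc22a3, mutant replicate 14 stood at 25%, with the other 3 at 0%. At Slc22a2, control replicate 8, a sparsely covered embryo, stood at 50.0%, with the next of 8 at 21.1%. At Igf2r, mutant replicate 11 stood at 7.14%, with the next of 6 at 1.18%, and the mean of the other 5 was 0.24%. In the window at 60.7 kb, control replicate 2 stood at 100%, with the next of 5 at 25%. In the mean over the tested windows of the interval, mutant replicate 18 stood at 76.7%, with the next of 10 at 28.5%; it had a value in 1 of these windows, and the mean of the other mutant embryos was 13.5%. The part of read depth in these values was not tested.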

How the results depend on the processing

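No paired analysis was possible because mothers and litters are not given, so embryos could not be matched between the groups. With at least 7 embryos per group, and in sparsely covered embryos alone, 0 member windows could be tested. Under every other alternative fitted over all windows 0 passed the threshold (0 to 0 with single embryos left out), although with at least 5 embryos per group only 4 windows, and without values of exactly 0 and 100 only 2, could be tested, neither time that of Airn. The lowest adjusted p of any member refit was 0.768. With single embryos left out, the Airn difference ran from -24.1 to -15.1 points, relative to the embryo mean from -22.0 to -12.4 and against Igf2r from -23.2 to -13.8, the Igf2r difference from -2.83 to -1.04, that of Slc22a2 from -6.56 to 6.26 and that of Slc22a3 from -3.36 to 4.98. Gm16574 ran from -6.76 to 13.2 and Gm7162 from -16.3 to 17. The differences of Slc22a2 (-0.026 on the arcsine square root scale), of Gm16574 in densely covered embryos (-3.39 points), and of Gm16574 without values of exactly 0 and 100 (-11.7), changed sign; the cause was not tested. The difference in the interval mean turned from 0.51 to -1.78 points in densely covered embryos and to -0.38 with the window at 28.1 kb left out. With single embryos left out, an alternative chosen after seeing the data, it ran from -6.40 (without mutant replicate 18) to 2.51 points.

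The 14 calls among all windows became 0 with at least 5 embryos per group (727 windows at an unadjusted p under 0.05), 0 with variance trend and robust fitting (1705), 0 without values of exactly 0 and 100 (634), 1 on the arcsine square root scale, 3 with at least 7, 4 in densely and 2 in sparsely covered embryos. They ran from 4 (without control replicate 4) to 33 (without mutant replicate 12) with single embryos left out, with 9 without control replicate 3 or mutant replicate 20 and 23 without control replicate 5.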
